A study of Cichorium intybus with 5 samples.

Results

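Metallothionein 1 (MT1, clone N104E6), a peroxidase similar to ATP24a (clone E002F2) and a quinone reductase (clone E017C3) are 3 of the 2112 probes on a chicory (Cichorium intybus) cDNA microarray, and were chosen by their clone names as genes of redox and metal stress. The study describes fewer unique genes than this, so probes can repeat a gene, and counts of probes are not counts of genes. All 3 clones have a deposited log2 ratio in each of the 5 comparisons, as do 467 probes in all. Leaf explants came from 2-month-old in vitro plantlets of K59, an embryogenic genotype, and of C15, a non-embryogenic genotype obtained by selfing K59. Each genotype is thus a single genotype rather than a population, and the methods state 12 plants of each genotype per condition. Induced explants were cultured for 4 days in the dark at 35°C, with shaking, in somatic embryogenesis (SE) induction medium (d4), and were compared with freshly excised explants that were not cultured (d0). No explants cultured without induction medium were compared. Effects of the medium, culture, dark, temperature and time since excision therefore cannot be told apart. In the second experiment, 250 µM β-Glc Y, a Yariv reagent that binds arabinogalactan-proteins, was present over the 4 days of culture (Y+), and the reference was culture over 4 days without it (Y-). No inactive Yariv analogue was included, so a response to the reagent as such and a response to its binding cannot be told apart. The fifth comparison set K59 d0 against C15 d0.

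Metallothioneins are small cysteine-rich proteins that bind metal ions such as copper and zinc through their thiol groups, and in plants they also scavenge reactive oxygen species. The nearest Arabidopsis hit listed by the study for the MT1 clone, AT5G02380, is known in that species as MT2B, a type 2 metallothionein. ATP24a (AT5G39580 in Arabidopsis) is a class III peroxidase, one of the secreted haem enzymes that use hydrogen peroxide to oxidize phenolic compounds in the cell wall and that can also produce reactive oxygen species there. The hit for the quinone reductase, AT5G54500, is FQR1 in Arabidopsis, a flavodoxin-like enzyme induced by auxin that transfers both electrons to a quinone at once and so avoids reactive semiquinones. The probes were PCR fragments of cDNA clones, which can also hybridize to transcripts of closely related family members, so that each value belongs to the clone and not surely to a single gene. No sequence of these clones was used here.

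Each deposited value is a log2 ratio, so that 1 stands for a doubling and -1 for a halving of signal. Only 1 value per probe and comparison was used here, although 3 biological replicates were made, so no value has an error, no difference was tested, and every statement compares single values. A probe is called past the threshold when its log2 ratio reaches 1 or -1, the cutoff named in the study's methods. Values are also placed among all probes of the same comparison, whose spread is given as the scaled median absolute deviation (MAD). This spread was 1.16 in K59 d4 vs. d0 (867 probes), 0.30 in C15 d4 vs. d0 (1169 probes), 0.22 in K59 Y+ vs. Y- (1201 probes), 0.21 in C15 Y+ vs. Y- (1260 probes) and 0.18 in K59 d0 vs. C15 d0 (492 probes). To describe the tissue, 6 photosynthesis clones listed by the study were taken, and all had values in every comparison. At d4 vs. d0 they lay between -5.5 and -0.97 in K59 and between -4.37 and -0.34 in C15. The study listed these clones for their regulation with induction on these same arrays, so their low values are a description and no independent check. The samples are whole explants, in which fewer cells of a type and less RNA per cell cannot be told apart.

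MT1 was the only gene of the 3 past the threshold after SE induction. Its log2 ratio of d4 over d0 was -2.88 in K59, a 7.36-fold lower signal, and -1.29 in C15, a 2.45-fold lower signal. In the deposited values MT1 was thus past the threshold in both genotypes, and lay nearer to 0 in C15. The C15 call conflicts with the study's own gene table, where MT1 does not reach the threshold in C15 and is listed among genes that differ between the genotypes, and the source of this conflict was not tested. In K59 it was the sole gene of the 3 past the threshold downwards, against 23.4% of all probes, and only 55 of 867 probes had a lower ratio. In C15 it was again the sole gene past the threshold downwards, against 8.3% of all probes, and 67 of 1169 probes had a lower ratio.

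**Figure D1:**
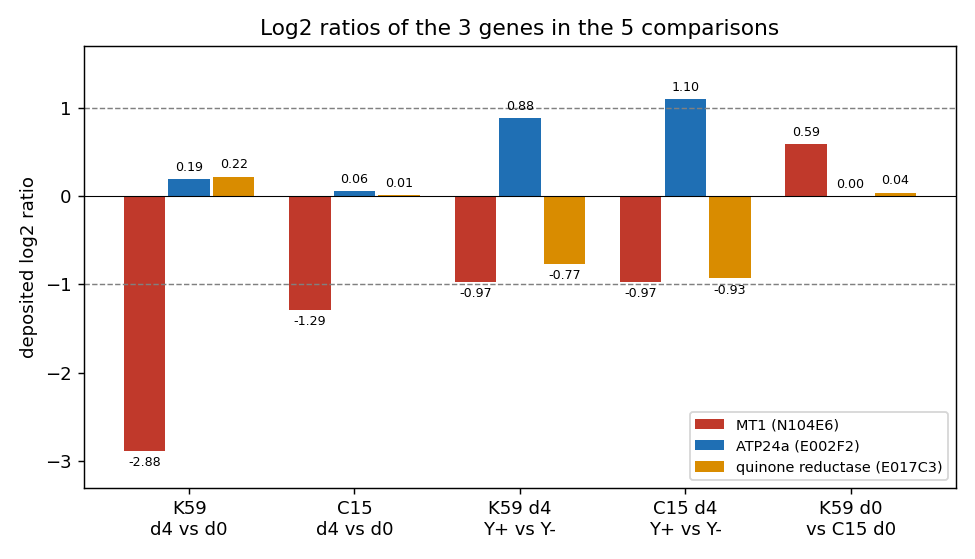
Deposited log2 ratios (vertical axis) of MT1, ATP24a and the quinone reductase in the 5 comparisons (horizontal axis), 1 bar per gene and comparison, with the value printed at each bar. The dashed lines mark log2 ratios of 1 and -1, and there are no error bars because 1 value was used per bar. MT1 stands at -2.88 in K59 and -1.29 in C15 at d4 vs. d0, while the other 2 genes lie between 0.01 and 0.22 there.

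The difference between the genotypes in MT1 repression was -1.59 on the log2 scale (K59 minus C15). Over the 811 probes with both induction values, the median difference was 0.14 with a MAD of 0.83, and 62 probes had a more negative difference than MT1. The size of the MT1 difference moved with the plate of the clone. On plate N104, which holds MT1, the median log2 ratio at d4 vs. d0 was -1.41 in K59 (29 probes) and -0.05 in C15 (44 probes). After subtraction of these plate medians the MT1 value was -1.47 in K59 and -1.24 in C15. The genotypes then differed by -0.23. The medians rest on partly different clones in each genotype. MT1 therefore remained past the threshold in both genotypes, but most of its K59 minus C15 difference went with the plate medians. The study preselected the clones of the array by subtractive hybridization of K59 against C15 at d4. Shares of all probes therefore describe a preselected array, and subtracting plate medians can also remove differences between the genotypes. Whether plate medians reflect the clones placed there or the printing was not tested.

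ATP24a and the quinone reductase showed no comparable change with induction. The ATP24a log2 ratio of d4 over d0 was 0.19 in K59 and 0.06 in C15. The quinone reductase had 0.22 in K59 and 0.01 in C15. All 4 values lie within 1 MAD of the median of their comparison, with 453 and 464 of 867 probes below ATP24a and the quinone reductase in K59. The K59 minus C15 differences, 0.13 for ATP24a and 0.21 for the quinone reductase, were close to the 0.14 of the median probe.

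**Figure D2:**
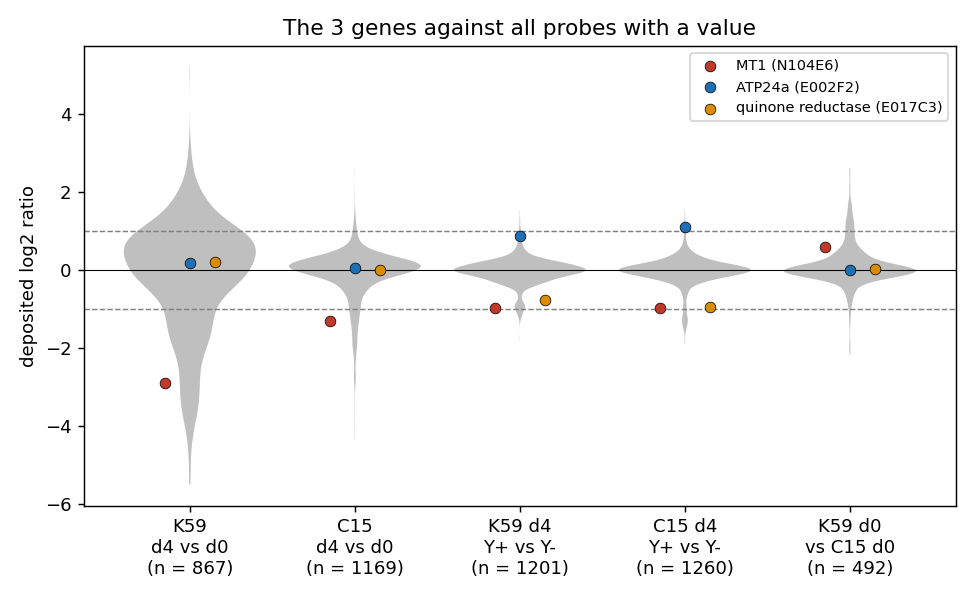
Distribution of the deposited log2 ratios of all probes with a value (grey shapes, with the number of probes under each) in the 5 comparisons, with MT1, ATP24a and the quinone reductase as coloured points. The dashed lines mark 1 and -1. The shape is widest for K59 d4 vs. d0 (MAD 1.16), whereas for Y+ vs. Y- all 3 genes lie outside the bulk of a narrow shape (MAD 0.22 in K59 and 0.21 in C15).

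In the presence of β-Glc Y all 3 genes lay away from the bulk of the array, ATP24a above it and MT1 and the quinone reductase below it. All 3 are genes that the study lists as affected by the reagent on these same arrays, so these places are a description. ATP24a had a log2 ratio of Y+ over Y- of 0.88 in K59, a 1.84-fold higher signal, and of 1.10 in C15, a 2.14-fold higher signal. Only 12 of 1201 probes were higher in K59 and 9 of 1260 in C15. In C15 ATP24a was the sole gene of the 3 past the threshold upwards, where 1.03% of all probes were, and in K59 it remained below the threshold.

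The quinone reductase had log2 ratios of -0.77 in K59 (1.71-fold lower with the reagent) and -0.93 in C15 (1.91-fold lower). Its ratio was below that of most probes in each genotype, with 57 of 1201 probes lower in K59 and 51 of 1260 in C15, but it did not reach the threshold in either. Its plate, E017, had a median of -0.25 in K59 (93 probes) and -0.17 in C15 (91 probes), and relative to these medians the gene stood at -0.52 in K59 and -0.76 in C15.

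In explants treated with β-Glc Y, MT1 had the same log2 ratio in K59 and C15, -0.97, which is a 1.96-fold lower signal and just short of the threshold. This sign is opposite to the direction in which the study describes the response of MT1 to β-Glc Y in both genotypes. The study also measured selected genes by quantitative RT-PCR in the induction and β-Glc Y comparisons, and its primers include a pair for MT1. It reports no significant difference between those measurements and its array values. The source of the conflict with the deposited values, which other genes of the study's table share, was not tested. Among all probes 25 of 1201 had a lower ratio in K59 and 49 of 1260 in C15. Subtracting the median of plate N104 left MT1 at -0.81 in K59 and -0.83 in C15.

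In K59 none of the 3 genes passed the threshold with β-Glc Y, against 2.58% of all probes in either direction, and in C15 1 did, against 4.84%. At a log2 ratio of 0.75 in size all 3 would be counted in each genotype. The K59 minus C15 differences were 0.00 for MT1, -0.22 for ATP24a and 0.16 for the quinone reductase, beside a MAD of 0.19 over the 1044 probes with both values. For ATP24a, the gene with the largest of the 3 differences in size, 124 of these probes had a more negative one.

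**Figure D3:**
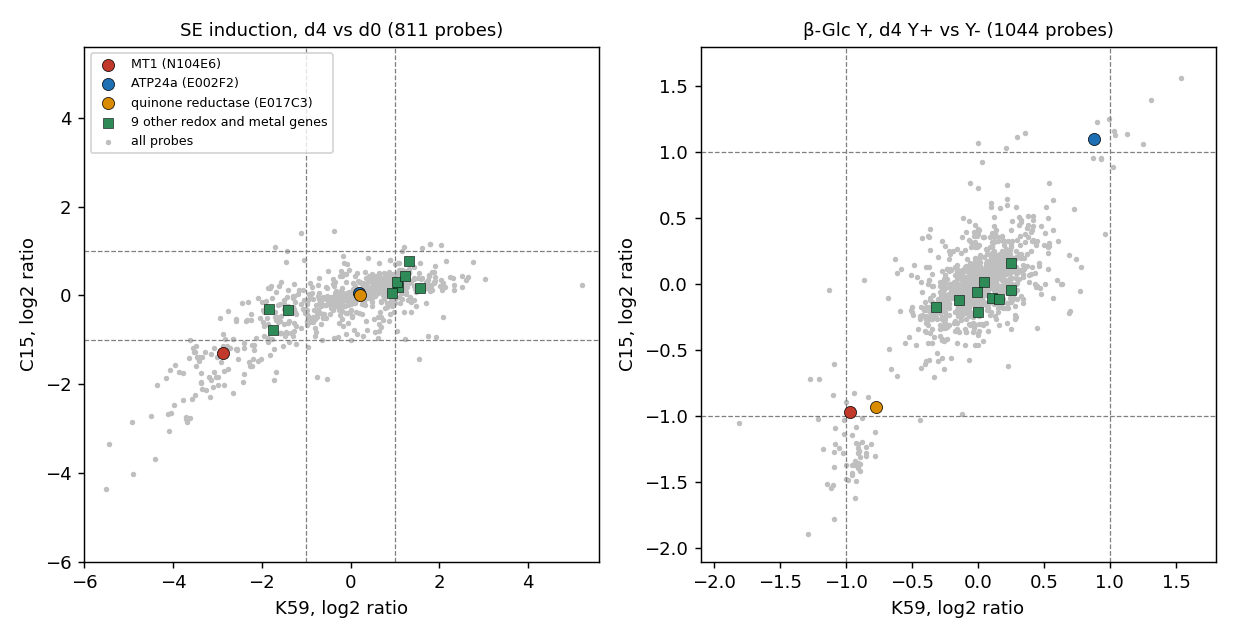
Log2 ratios in K59 (horizontal axis) against C15 (vertical axis) for SE induction (left, 811 probes) and for β-Glc Y (right, 1044 probes), with MT1, ATP24a and the quinone reductase as coloured circles, 9 other redox and metal genes as green squares and all probes in grey. Dashed lines mark 1 and -1. On the right, MT1 and the quinone reductase lie among 54 probes with low ratios in both genotypes, ATP24a lies among 13 probes with high ratios, and the green squares stay between -0.32 and 0.25.

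MT1 and the quinone reductase were among the 54 of 1044 probes (5.17%) at or below -0.75 in both genotypes in the presence of β-Glc Y. With the limit at -0.5 in both the group would hold 59 probes. These limits were set with the values in view and describe the group only. Its median was -0.94 in K59 and -1.26 in C15. In K59 MT1 was near the middle of the group, with 21 members lower and 32 higher, but in C15 47 were lower and 6 higher. The quinone reductase was at the upper edge in both, with 1 member higher in K59 and 5 in C15. Of the 52 group members with both induction values, 9 (17.3%, MT1 included) were past the threshold downwards in both genotypes after induction, against 10.9% of all 811 probes with both values. Another 23 (44.2%, the quinone reductase included) were within it in both, against 58.3% of all probes.

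The group was unevenly spread over the plates. It held 6 of 39 probes (15.4%) of plate N104, 10 of 91 (10.99%) of plate E017 and 8 of 53 (15.1%) of plate E002, the plate of ATP24a. In the well next to the quinone reductase, clone E017C2 had -0.98 in K59 and -1.48 in C15, whereas clone E017C4 on the other side had -0.11 and -0.13. The wells on either side of MT1 have no value. ATP24a stood against the low probes of its own plate, 1.18 above the plate median in C15 and 0.91 above it in K59, and its neighbour E002F1 had -0.12 in K59 and 0.07 in C15. Whether plate position had a part in these ratios was not tested.

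**Figure D4:**
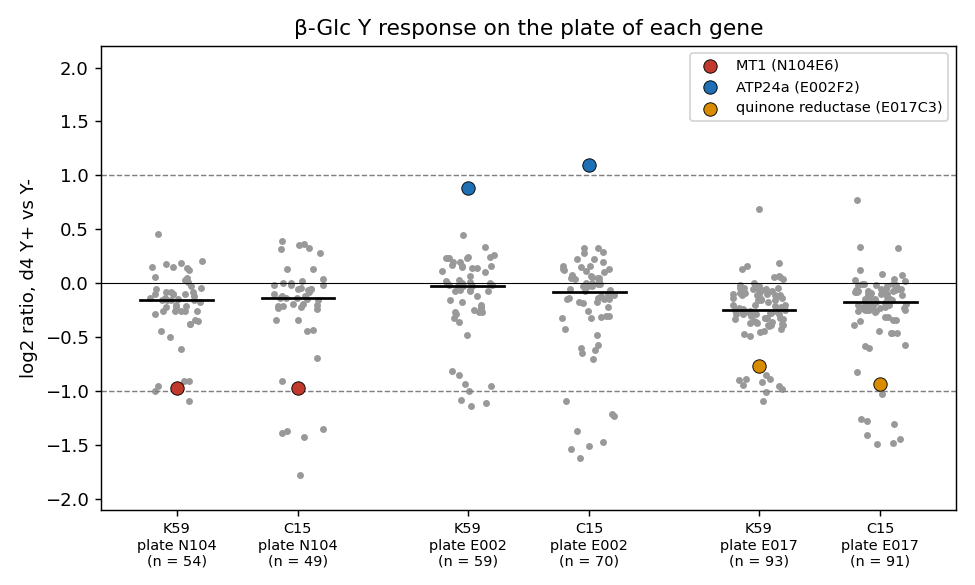
Log2 ratios of Y+ over Y- (vertical axis) for all probes of the plate that holds each gene (grey points, spread sideways for visibility), for K59 and C15 side by side, with the plate median as a black line and the gene as a coloured circle. Dashed lines mark 1 and -1. MT1 (-0.97 in both genotypes) and the quinone reductase (-0.77 in K59 and -0.93 in C15) fall in or near a lower cluster of clones on their plates, and ATP24a (0.88 in K59 and 1.10 in C15) is the highest point of its plate.

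At d0 the log2 ratio of K59 over C15 was 0.59 for MT1, 0.00 for ATP24a and 0.04 for the quinone reductase. None passed the threshold, against 8.13% of all probes, and for MT1 56 of 492 probes had a higher ratio. MT1 thus had the largest d0 ratio of the 3, but stood only 0.23 above the median of its plate, 0.36 (17 probes). The study states that the d0 profiles of the genotypes did not differ significantly. The direction of this comparison is not settled. It rests on labels alone, and its ratios correlate negatively with both induction comparisons, whose d0 samples it shares. Across probes, which are not independent, r was -0.54 with K59 d4 vs. K59 d0 (486 probes) and -0.52 with C15 d4 vs. C15 d0 (491 probes). With the d0 values of the study's own gene table, r was -0.07 over 135 genes. With an r of this size, turning the sign would not bring the values together. None of those genes passed the threshold in either source. As labelled, the shared d0 sample stands on opposite sides of the ratio for K59 and on the same side for C15. With the sign turned, MT1 would stand at -0.59. An exact 0.00, as for ATP24a, is listed for 57 of the 492 probes, and it is not known whether these were measured or filled in.

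Sums of the ratios give comparisons that were not hybridized directly, under the assumption that the shared samples were the same RNA, which the sources do not state. For MT1, adding induction and reagent gave -3.85 for K59 Y+ over K59 d0 and -2.26 for C15 Y+ over C15 d0. Both steps pointed downwards in the deposited values. The reagent step of MT1 is opposite in sign to the response that the study describes, so these MT1 sums share that unresolved conflict. For ATP24a the sums reached 1.07 in K59 and 1.16 in C15, nearly all of it from the reagent. For the quinone reductase they were -0.55 in K59 and -0.92 in C15. The implied d4 ratio of K59 over C15 was -1.0 for MT1 with the d0 ratio as labelled and -2.18 with its sign turned. Relative to plate medians it was 0.00 as labelled and -0.46 with the d0 sign turned, so that a lower MT1 level in K59 at d4 also went with the plate medians. It was 0.13 for ATP24a and 0.25 for the quinone reductase as labelled, and -0.13 and -0.36 relative to plate medians. All implied d4 ratios rest on d0 values that did not follow those of the study's gene table.

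The study's gene table names 9 further genes of redox and metal biology, listed there because they differed between the genotypes on these same arrays, so their counts are a description. At d4 vs. d0 in K59, 5 of the 9 were past the threshold upwards and 3 downwards, against 17.3% and 23.4% of all probes (40.7% in either direction). Their median log2 ratio was 1.05, against 0.10 for all probes. Relative to plate medians only 3 of the 9 passed it, the isoflavone reductase (1.01) and ZIP4 (1.0) upwards and the peroxidase E013D3 (-1.58) downwards. In C15 none of the 9 passed it, against 9.84% of all probes in either direction, and their median was 0.16, against 0.06 for all probes. With β-Glc Y the 9 genes stayed between -0.32 and 0.25 in K59 and between -0.21 and 0.16 in C15, with medians of 0.05 and -0.10. MT1, ATP24a and the quinone reductase lay farther from 0. ATP24a and the quinone reductase are listed for their response to the reagent, and the 9 are not, so this contrast follows from the listing. MT1 is listed with the 9 for its difference between the genotypes, but the study also names it as affected by the reagent. The contrast for MT1 is thus not independent of the listing either, although its deposited sign is opposite to the listed one.

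Among these, another class III peroxidase (clone E013D3, Arabidopsis hit AT5G64120) had a log2 ratio at d4 vs. d0 of -1.74 in K59 and -0.79 in C15, against 0.19 and 0.06 for ATP24a. With β-Glc Y it had 0.00 in K59 and -0.21 in C15, which is 0.88 and 1.31 below ATP24a. The study lists E013D3 for its difference between the genotypes and ATP24a for its response to the reagent, so this contrast of the peroxidase clones follows from the listing, as does that of the quinone reductases described next. A clone that the study names as a stromal ascorbate peroxidase, a chloroplast enzyme that removes hydrogen peroxide, is E006G11 (Arabidopsis hit AT1G77490). The word stromal was not checked against that hit. After induction E006G11 had 1.05 in K59 (0.57 relative to its plate median) and 0.29 in C15. With β-Glc Y it had -0.01 in K59 and -0.06 in C15.

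The other quinone reductase (clone E006H4) had a log2 ratio at d4 vs. d0 of 1.07 in K59 and 0.18 in C15, and its K59 value was 0.59 relative to the plate median. Against it, E017C3 was lower by 0.85 in K59 and by 0.17 in C15. With β-Glc Y, E006H4 stood at 0.11 in K59 and -0.10 in C15. A clone that the study names as an NADH-cytochrome b5 reductase (E006G1) had 0.93 in K59 and 0.05 in C15 after induction. That name was not checked against the Arabidopsis hit listed for the clone, AT1G79750.

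Both genes of thiol metabolism were past the threshold downwards after induction of K59, but neither was relative to plate medians, where MT1 still was. An H-type thioredoxin (clone E004A9), which reduces disulphide bonds of proteins, had -1.84 in K59 and -0.30 in C15, and its K59 value was -0.99 relative to the plate median. A glutathione S-transferase (clone N104C2), which couples glutathione to reactive compounds, had -1.41 in K59 and -0.32 in C15, and its K59 value equals the median of plate N104, which it shares with MT1. By contrast ZIP4 (clone E016G6), a zinc transporter in Arabidopsis and the other gene of metal handling, had 1.31 in K59 and 0.78 in C15. An isoflavone reductase (clone E011H3) had 1.56 in K59 and 0.16 in C15, and a polyphenol oxidase (clone E017A6) had 1.23 in K59, or 0.49 relative to its plate median, and 0.43 in C15.

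Probes of similar profile were sought by the Euclidean distance of the log2 ratios over the 4 induction and β-Glc Y comparisons, among the 736 probes with all 4 values. For MT1 the nearest were clones E012B10 (distance 0.44), E017G1 (0.57) and E015H1 (0.58), the last a ubiquitin-conjugating enzyme (UBC9). E012B10 had -3.28 in K59 and -1.28 in C15 after induction, and with β-Glc Y -0.83 in K59 and -0.85 in C15. At d0 these 3 clones stood at 1.11, 1.68 and 0.53, on the same side of 0 as MT1. For ATP24a the nearest were the LBD41 homologue (E012F12, 0.46), a transcription factor of the LATERAL ORGAN BOUNDARIES family, and the clones E001G8 (0.57) and E014B5 (0.58). For the quinone reductase they were clones N103G11 (0.33), N103A1 (0.33) and N101A6 (0.37), to which the study's gene table gives no name. With β-Glc Y, N103G11 had -0.92 in K59 and -1.20 in C15, and after induction 0.30 and 0.09. The order of the neighbours depended on the measure and says nothing of shared function.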

How the data were processed

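RNA of leaf explants was compared on 2-colour cDNA arrays, on which each PCR fragment was spotted 3 times. Per the methods and labels, the authors left out faulty, dim and saturated spots, worked from each spot's median intensity less background, scaled every slide first by global lowess and then by print-tip medians, and dropped probes whose ratio turned on dye swap. The deposited values are the resulting log2 ratios, channel 1 over channel 2, with 1 value for each probe and comparison. The methods state 3 biological replicates and 6 hybridizations per condition (the deposited design excepts the d0 comparison), but not how they were combined. Spot intensities and single hybridizations were not analysed here, so precision and depth are unknown and no p-value is given.

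The direction follows the labels. For induction, the columns have the same sign as those of the study's gene table wherever either passes the threshold. For β-Glc Y 16 of 22 such genes in K59 and 16 of 24 in C15 do, MT1 being among those that do not, and for d0 the direction is not settled. Gene names come from that table, matched by clone. The genes, lists and limits were chosen with earlier results of these data known. Named are the 3 genes, 9 other redox and metal genes, the 3 nearest probes of each gene and, chosen after seeing values, the wells beside them. The columns of per-probe values were all used. Counts and distances were checked on simulated tables. Alternatives were thresholds of 0.75 and 1.5, subtraction of comparison or plate medians (plates hold up to 96 wells), the d0 sign turned, and other distances. The d0 sign and the plate medians in the implied d4 ratios were added after seeing the data. Python 3.11.15, numpy 2.4.6, pandas 2.3.3 and matplotlib 3.10.9 were used.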

Additional observations from a re-analysis of the deposited data

Results flagged for a closer look

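With β-Glc Y, 3 of the other redox and metal genes had opposite signs in the genotypes, a difference that was not tested and that rests on 1 value per genotype. The quinone reductase clone E006H4 stood at 0.11 in K59 and -0.10 in C15, which is a difference of 0.21. The isoflavone reductase clone E011H3 stood at 0.25 in K59 and -0.04 in C15, which is a difference of 0.29. ZIP4 (clone E016G6) stood at 0.16 in K59 and -0.11 in C15, which is a difference of 0.27. All 6 values are far from the threshold. None of the differences reaches 2 times the spread (MAD 0.19) of K59 minus C15 over the 1044 probes with both values. MT1, ATP24a and the quinone reductase E017C3 had the same sign in both genotypes after induction and with β-Glc Y. After induction of C15, however, ATP24a (0.06) and E017C3 (0.01) lay within 1 MAD of the median, so their shared sign there says little.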

How the results depend on the processing

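Of 36 recomputed counts, 29 stayed within 1.5 times the first count. The others changed with the threshold by construction, or with plate centring. At a threshold of 1.5, 0 of the 3 genes were past it in C15 induction and 0 in C15 with β-Glc Y, in place of 1 each, and 3 of the 9 other redox and metal genes in K59 induction, in place of 8. At 0.75, all 3 genes were counted with β-Glc Y in K59 (in place of 0) and in C15 (in place of 1), and 2 of the 9 other genes in C15 induction (in place of 0). Subtracting plate medians left 3 of the 9 other genes past the threshold in K59 induction, and the cause was not tested. Of 15 single values of the 3 genes, none crossed the threshold after subtraction of comparison or plate medians, and 3 near 0 changed sign under plate medians and 1 under comparison medians. The MT1 difference of -1.59 between the genotypes became -0.23 with plate medians, and its implied d4 ratio of -1.0 became 0.00. Of the 3 nearest probes, MT1 kept 2 under each other distance, ATP24a 1 with all 5 comparisons and 2 with scaled values, and the quinone reductase 3 and 1. No paired analysis was possible because each comparison has 1 value per probe. With no intensities, which of these probes were dim is unknown.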
